A study of Homo sapiens with 13 samples.

Results

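The 10 genes described here encode the stress-responsive AP-1 transcription factors of the FOS and JUN families and their relatives ATF3, BATF and BATF3. They were chosen by name, as members of these families, out of 20033 protein-coding genes, and the rule uses no measured value, although earlier results of these data were known when they were chosen. Open chromatin had been mapped with ATAC-seq, whose transposase inserts sequencing tags into accessible DNA. The cells were 2 established lines of human small cell lung cancer, H82 of the NEUROD1-driven subtype and H146 of another neuroendocrine subtype. Each line was left untreated (3 H82 and 4 H146 libraries) or given the SMARCA4 and SMARCA2 ATPase inhibitor FHD-286 at 100 nM for 14 days (3 libraries per line). The data hold 1 atlas per line, a list of accessible regions on hg38 pooled over its untreated and treated libraries and merged where they lay within 500 bp. A region has a position and a width, and no height, count or library. The effect of FHD-286 was therefore not analysed, no value has a replicate, and every difference between the lines below is a description with no test. The line cannot be told apart from the number and depth of its libraries or from its number of DNA copies, and the depth is unknown.

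AP-1 is a dimer of basic leucine zipper proteins. JUN proteins pair with themselves or with FOS proteins, which cannot form stable dimers alone. The dimers bind chiefly TGACTCA and TGAGTCA. The word searched here, TGANTCA, where N is any base, is wider and also takes in TGAATCA and TGATTCA. FOS, FOSB, JUN, JUNB and ATF3 are immediate early or early response genes, transcribed within minutes to hours of growth factors or stress without new protein synthesis, and their promoters are commonly found open ahead of the stimulus. ATF3 dimers bind the related cyclic AMP response element TGACGTCA and its variant TGACATCA. BATF and BATF3 pair with JUN proteins and are best known from lymphocytes and dendritic cells. Small cell lung cancer cells are mostly neuroendocrine, and AP-1 activity is known chiefly from their non-neuroendocrine states.

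The cell lines were checked against marker genes. At NEUROD1 a region overlapped the 1 kb around the transcription start site (TSS) in H82 only, and the TSSs of INSM1, SYP, CHGA and NCAM1 had one in both lines. The TSSs of PTPRC and CD3E, which mark blood cells, had none in either, and those of COL1A1 and PECAM1, which mark fibroblasts and endothelium, had one in both. YAP1, POU2F3 and REST also had one in both. After removal of 1 mitochondrial region from each, the atlases held 206927 regions in H82 and 174093 in H146.

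The sequences shown first are those that separate the promoters by what they hold. They are the 250 bases upstream of the RefSeq start on GRCh38.p14, read 5′ to 3′ on the strand of the gene. All 9 entries of the 8 matched members were identical to hg38. FOSL1 and BATF3 had no entry and are not among the promoters read. The ATF3 entries start at 212565407 and 212615018. The bases before its internal starts at 212608670 to 212608915, described below, were therefore not read. Capitals mark the words TGACATCA and TGACGTCA and the TATA word TATAAA, each searched on both strands. The first 5 promoters lay whole inside a region of both atlases, and that of BATF, which holds none of the 3 words, lay outside every region of both.

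FOS at chr14:75278578-75278827, plus strand: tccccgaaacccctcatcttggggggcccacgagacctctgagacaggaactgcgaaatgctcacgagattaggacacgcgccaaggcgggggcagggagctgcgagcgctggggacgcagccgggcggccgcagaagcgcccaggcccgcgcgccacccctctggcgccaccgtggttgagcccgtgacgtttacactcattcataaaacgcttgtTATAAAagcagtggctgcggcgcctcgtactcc

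FOSB at chr19:45467746-45467995, plus strand: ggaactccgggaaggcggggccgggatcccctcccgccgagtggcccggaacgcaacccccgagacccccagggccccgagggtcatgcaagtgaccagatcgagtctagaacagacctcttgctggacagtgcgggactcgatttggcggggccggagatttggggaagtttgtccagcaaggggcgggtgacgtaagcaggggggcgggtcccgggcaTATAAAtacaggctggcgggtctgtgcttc

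JUN at chr1:58784048-58784297, minus strand: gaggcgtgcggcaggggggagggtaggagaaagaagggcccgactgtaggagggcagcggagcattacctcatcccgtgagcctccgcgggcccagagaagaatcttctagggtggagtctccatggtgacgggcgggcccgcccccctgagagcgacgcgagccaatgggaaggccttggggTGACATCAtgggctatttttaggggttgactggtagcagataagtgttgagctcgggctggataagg

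JUNB at chr19:12791236-12791485, plus strand: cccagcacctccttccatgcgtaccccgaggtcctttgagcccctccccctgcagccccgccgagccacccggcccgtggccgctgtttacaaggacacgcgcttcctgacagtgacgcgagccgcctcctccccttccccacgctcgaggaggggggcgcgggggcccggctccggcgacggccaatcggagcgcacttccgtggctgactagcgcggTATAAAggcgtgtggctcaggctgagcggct

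JUND at chr19:18281623-18281872, minus strand: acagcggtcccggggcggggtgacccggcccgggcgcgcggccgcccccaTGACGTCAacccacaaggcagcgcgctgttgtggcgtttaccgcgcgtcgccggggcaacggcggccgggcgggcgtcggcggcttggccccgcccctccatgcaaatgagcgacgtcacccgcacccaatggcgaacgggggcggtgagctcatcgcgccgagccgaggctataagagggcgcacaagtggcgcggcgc

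BATF at chr14:75522219-75522468, plus strand: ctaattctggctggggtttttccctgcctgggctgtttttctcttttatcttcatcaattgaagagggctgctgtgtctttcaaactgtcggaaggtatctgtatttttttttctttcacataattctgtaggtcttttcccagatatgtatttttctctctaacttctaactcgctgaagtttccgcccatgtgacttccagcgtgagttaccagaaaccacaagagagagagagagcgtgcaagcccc

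The next sequence is the whole of a 200 bp region beside the first ATF3 start that was listed in H146 and not in H82, and its capitals mark TGACATCA.

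ATF3 at chr1:212565121-212565320, plus strand: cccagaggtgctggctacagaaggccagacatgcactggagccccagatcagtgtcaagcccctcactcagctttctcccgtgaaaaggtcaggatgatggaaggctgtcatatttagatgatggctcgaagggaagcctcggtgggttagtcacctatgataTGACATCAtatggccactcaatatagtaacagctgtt

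TATAAA lay just before the start of 3 members, from position -33 to -28 in FOS, from -31 to -26 in JUNB and from -30 to -25 in FOSB. It was found anywhere in the 250 bases of 10.7% of 35116 promoters, and on the strand of the gene within the 40 to 20 bases before the start of 2.26%, a window chosen after the matches had been seen. TGACATCA lay at -67 to -60 in JUN, where it is the known site of JUN and ATF2 dimers, and at -123 to -116 from the first RefSeq start of ATF3, against 2.37% of all promoters with this word. TGACGTCA lay at -200 to -193 in JUND, against 1.65% of all promoters. The 7-base word TGANTCA was matched in 0 of the 9 promoters and in 6.57% of all. The CArG box read by serum response factor, searched in its strict form, was matched in 0 of the 9 and in 1.16% of all. Bases farther upstream than these 250 were not read, so a CArG box there would be missed. The capitalised words did not overlap one another. A match is a run of letters and not a measured binding site.

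Of the 10 members, 8 had a region over the TSS in both lines, where 75.4% of all protein-coding genes did. ATF3 had one in H146 only, a state shared by 1.86% of genes. None had one in H82 only (5.10% of genes), and BATF had none in either line (17.7% of genes). The TSS regions of the members were wide in both lines. Their median width was 5262 bp over 8 members in H82 and 6486 bp over 9 in H146, against 1774 and 1708 bp over all genes with such a region. A width of 4 kb or more was reached by 6 members in each line, and by 9.38% of genes with a TSS region in H82 and 7.53% in H146. This cut was not part of the plan, and FOSB, at 4117 bp in H82, lay just above it. Of the 8 members with a TSS region in both lines, 6 had the wider one in H146, which was the case for 52.1% of 15097 genes.

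**Figure D1:**
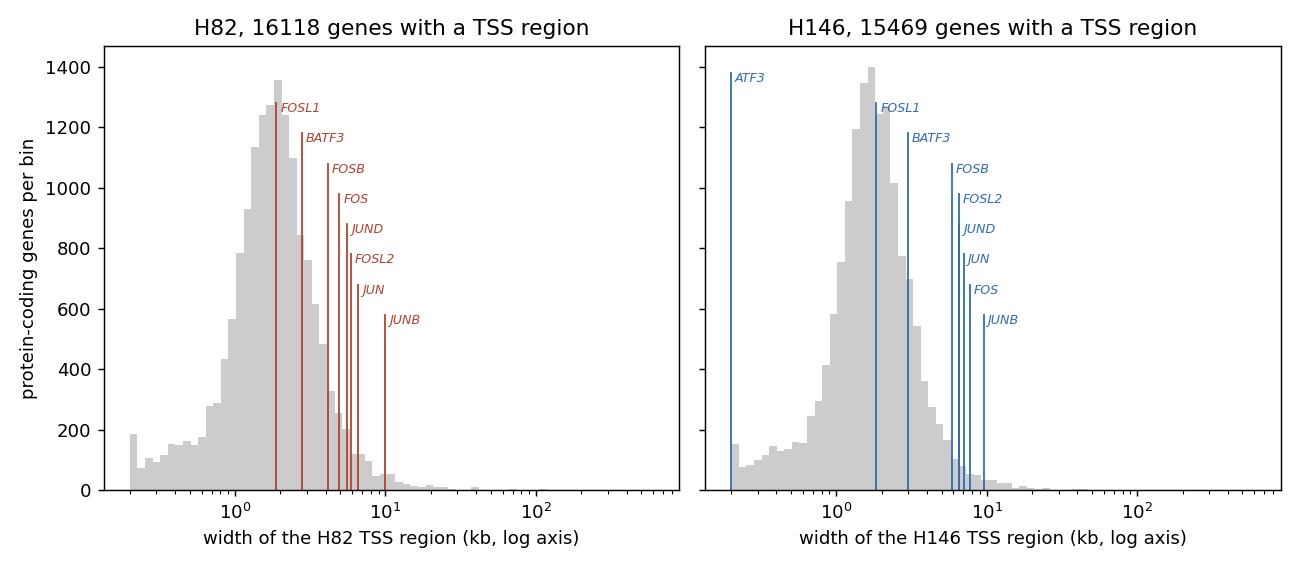
Width of the region over the TSS in H82 (left) and H146 (right) for all protein-coding genes that have one (grey bars, genes per bin, log width axis in kb), with a line at each member, whose height only spaces the names. JUNB, JUN, FOS, FOSL2, JUND and FOSB stand to the right of most genes in both lines, while FOSL1 lies near the middle at 1884 bp in H82 and 1846 bp in H146 and ATF3 is at 200 bp in H146 alone.

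The FOS family supplies the partners that JUN proteins need for strong DNA binding. FOS (ENSG00000170345.10, chr14:75278826-75282230, plus strand) is the founding immediate early member. Its TSS region measured 4937 bp in H82, wider than 94.2% of TSS regions of that line, and 7714 bp in H146, wider than 98.4%. The 2 regions began at nearly the same place, 1968 bp upstream of the TSS in H82 and 2084 bp in H146. They ended differently, 2968 bp downstream of the TSS in H82, inside the gene of 3405 bp, and 5629 bp downstream in H146, past its end. A second H82 region of 954 bp lay inside the H146 region, so that both H82 regions together covered 76.4% of it. The gene body of FOS was covered to 87.2% in H82 and to 100% in H146.

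FOSB (ENSG00000125740.15, chr19:45467995-45475179, plus strand), an early response gene with a truncated product known from repeated neuronal stimulation, had regions over most of its body in both lines. Its TSS region measured 4117 bp in H82 and 5890 bp in H146, and a second region lay over the rest of the gene in both lines, 4125 bp wide in H82 and 2258 bp wide in H146. The gap between the first and second regions thus lay at different places in the gene, and the 2 H82 regions together covered 90.6% of the H146 TSS region. The gene body was covered to 92.3% in H82 and 91.4% in H146. Whether neighbouring stretches appear as 1 region or 2 depends on the merging distance of 500 bp.

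FOSL1 and FOSL2 encode FRA1 and FRA2, which lack the strong activation domain of FOS, and FRA1 is known for its part in mesenchymal and invasive states. FOSL1 (ENSG00000175592.9, chr11:65892049-65900573, minus strand) had the most ordinary promoter of the FOS family, with a TSS region of 1884 bp in H82 and 1846 bp in H146, wider than 54.1% and 55.9% of TSS regions. Its gene body was covered to 68.0% in H82 and 51.4% in H146, the largest difference in a gene body among the 10 members. FOSL2 (ENSG00000075426.12, chr2:28392448-28417317, plus strand) had a TSS region of 5857 bp in H82 and 6486 bp in H146, and 28.1% and 25.0% of its longer gene body was covered. All annotated transcript starts of the 4 FOS family genes had a region in both lines.

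**Figure D2:**
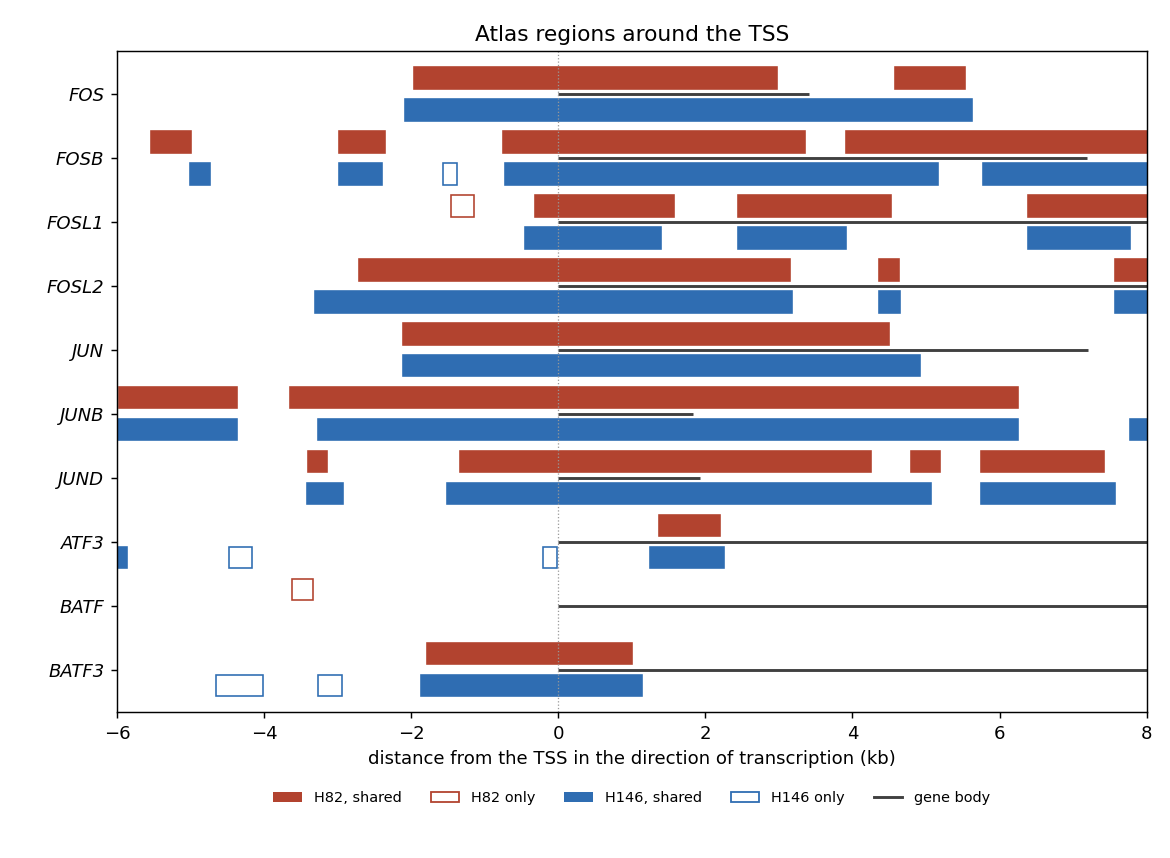
Regions of H82 (red, above) and H146 (blue, below) from 6 kb upstream to 8 kb downstream of the TSS of each member, drawn to scale in the direction of transcription, with filled boxes for regions that overlap a region of the other line, open boxes for regions that do not, and a grey line for the gene body. The H146 region of FOS spans 2 regions of H82, ATF3 has an open box of 200 bp in H146 just before the TSS, and the BATF TSS has no box in either line.

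The JUN family supplies the partners that can also dimerise among themselves. JUN (ENSG00000177606.9, chr1:58776845-58784048, minus strand) encodes the strongest activator of the family. Its TSS region measured 6615 bp in H82 and 7029 bp in H146, and both ended at the same base 2110 bp upstream of the TSS. JUNB (ENSG00000171223.6, chr19:12791486-12793315, plus strand), whose product can oppose JUN, had the widest TSS region among the members in both lines, 9898 bp in H82 and 9509 bp in H146. Both regions contained the whole JUNB gene of 1830 bp and ended at the same base, 6245 bp downstream of the TSS. JUND (ENSG00000130522.6, chr19:18279694-18281622, minus strand), the member that most cells express without a stimulus, was also contained whole, by a TSS region of 5587 bp in H82 and of 6572 bp in H146. Among all TSS regions, those of JUN, JUNB and JUND were wider than 95.6% to 98.6% of TSS regions in H82 and 97.7% to 99.0% in H146.

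ATF3 (ENSG00000162772.18, chr1:212565334-212620777, plus strand) is induced by many stresses and acts largely as a repressor. GENCODE gives 7 transcript starts for it, spread over the gene. At the first, the H146 region of 200 bp shown above ran from 213 bp upstream to position -14, and no H82 region lay within 1 kb. The nearest H82 region, of 828 bp, began 1375 bp downstream. A group of 3 starts at 212608670 to 212608915 lay in a region of 4325 bp in H82 and of 4106 bp in H146. The start at 212613436 had a region of 1415 bp in H82 only, and the last 2 starts had none in either line. In each line 4 of the 7 starts had a region, and the wide shared region lay at the internal starts. The TSS call of ATF3 as H146 only thus rests on 1 region of 200 bp, the smallest width in these windows, and ATF3 counted as open in both lines when the starts of all transcripts or a TSS window of 5 kb were used.

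BATF3 (ENSG00000123685.9, chr1:212686417-212699840, minus strand), needed for a class of dendritic cells, had a TSS region of 2783 bp in H82 and 3008 bp in H146, wider than 78.2% and 84.3% of TSS regions. Its shortest transcript, from 212687509, had no region at its start in either line. BATF (ENSG00000156127.8, chr14:75522455-75546993, plus strand), known from T cell differentiation, was the member with the least accessible DNA. None of its 3 transcript starts had a region, and its gene body of 24539 bp held 0 regions in both lines. The nearest region ended at position -3341 from the TSS in H82 (280 bp wide and not listed in H146) and at -6976 in H146 (200 bp wide).

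The next measure was the covered share, the percentage of the gene body and 50 kb to either side that lay in regions. Over the 10 windows together, 1114 kb, the regions covered 20.5% in H82 and 20.9% in H146. For single members the covered share was highest at JUNB, 42.3% in H82 and 48.9% in H146, and lowest at BATF, 4.98% and 4.36%. The median over the members was 16.1% in H82 and 18.4% in H146, against 7.52% and 6.15% over all genes. In these windows 0 members differed by 2-fold or more between the lines, where 15.1% of all genes were higher in H82 by that much and 1.43% were higher in H146. By any amount, 6 members were higher in H82 and 4 in H146, against 63.7% and 35.4% of all genes. Under other settings BATF passed 2-fold with 10 kb to either side (log2 ratio 1.26, higher in H82), where its regions are few and narrow, and FOS after division by its surroundings, given with the surroundings. The median log2 ratio of H82 to H146 was 0.05 over the members and 0.19 over all genes, whose middle 50% ran from -0.14 to 0.67.

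The 4 members with the larger covered share in H146 were FOS, JUN, JUNB and BATF3. FOS was covered to 14.0% in H82 and 17.8% in H146 (log2 ratio -0.34), JUN to 16.1% and 19.1% (log2 ratio -0.24), and BATF3 to 10.5% and 13.3% (log2 ratio -0.34). JUNB, with the shares given above, had a log2 ratio of -0.21. These ratios stood at percentiles 13.1 to 20.4 of all genes. For FOS and JUN the sign was the same under all 6 other ways of computing the ratio, among them windows of 10 and 100 kb and division by the whole atlas. JUNB changed sign when divided by its surroundings, and BATF3 when the window was widened to 100 kb.

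The other 6 members had the larger share in H82. ATF3 was covered to 13.8% in H82 and 11.3% in H146 (log2 ratio 0.29), FOSL2 to 16.1% and 14.1% (0.19), FOSB to 35.0% and 31.1% (0.17), JUND to 25.7% and 24.3% (0.08) and FOSL1 to 33.1% and 32.9% (0.01). The log2 ratio of BATF was 0.19. Each of these 6 changed sign under at least 1 of the 6 other settings, and FOSL1 under 5. Divided by the total length of the atlas of its line, which is larger in H82, the covered share was higher in H82 at ATF3 alone, with a log2 ratio of 0.02.

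**Figure D3:**
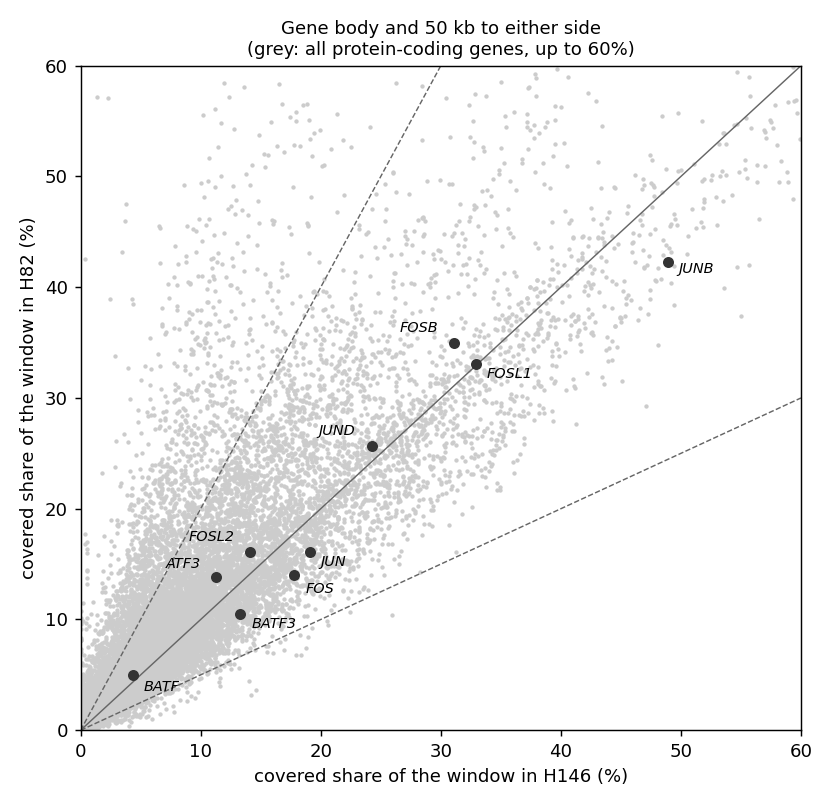
Covered share of the gene body and 50 kb to either side in H146 (x axis, %) and H82 (y axis, %), 1 grey point per protein-coding gene up to 60% and 1 labelled black point per member, with equal shares on the solid line and 2-fold differences on the dashed lines. All 10 members lie between the dashed lines, from BATF at 4.98% and 4.36% to JUNB at 42.3% and 48.9% in H82 and H146.

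The covered share was also compared with that of the 1 Mb beyond each side of the window. Around FOS the surroundings were covered to 9.37% in H82 and 3.69% in H146, in the opposite order to the FOS window. The FOS window was thus the more covered one in H146 although its surroundings were the less covered, and the log2 ratio divided by the surroundings was -1.69, the lowest of the members. BATF, 244 kb from FOS on the same chromosome, had surroundings of 9.70% and 4.32% and a ratio of -0.97 after this division. For JUN the surroundings were alike, 5.30% in H82 and 4.57% in H146. At the other 7 members the ratio divided by the surroundings lay between -0.51 at BATF3 and 0.17 at JUND and ATF3. Whether DNA copy number differs between the lines around FOS was not tested.

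The windows held 182 regions in H82 and 174 in H146, a ratio of 1.05 with an interval of 0.845 to 1.30 (95%, exact, counting error only). The ratio was 1.19 over the whole atlases and 1.20 over the windows of all protein-coding genes, both inside that interval. The interval takes the counts of the lines as independent, while most regions of the windows were shared between them. It therefore cannot decide whether the windows differ from the atlases. Regions in the windows were wider than in the whole atlas, with median widths of 682 bp in H82 and 690 bp in H146 against 482 and 499 bp. Of the H82 regions 140 (76.9%, exact binomial interval 70.1% to 82.8%) shared at least 1 bp with a region of H146, against 59.2% of H82 regions in the windows of all genes. Of the H146 regions 135 (77.6%, 70.7% to 83.5%) overlapped an H82 region, against 71.5%. Regions listed in 1 line only were narrow, with a median of 356 bp for the 42 of H82 and 307 bp for the 39 of H146, where shared regions had medians of 837 and 990 bp. Of the line-only regions 64.3% lay between genes in H82 and 53.8% in H146, against 45.0% and 43.0% of the shared regions of the windows.

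The share of line-only regions varied among the members. At JUN all 15 regions of H82 were shared and 13 of 14 of H146, the exception being 258 bp wide. At FOS 2 of 13 H82 regions and 6 of 15 H146 regions were line-only, none of them over the gene. At FOSL2 the split ran the other way, with 11 of 24 line-only in H82 and 3 of 16 in H146. Shared regions thus made up 54.2% and 81.2% there, against 59.2% and 71.5% in the windows of all genes. The H82 share at FOSL2 is near that of all genes. ATF3 had 11 of 27 and 8 of 24, and BATF3 had 3 of 15 and 7 of 19. The windows of ATF3 and BATF3 overlap by 34.4 kb, and regions there count for both genes and once in the totals. FOSL1, FOSB, JUND and JUNB lie among other genes, with 9, 4, 5 and 6 other protein-coding TSSs in their windows. Part of the covered share there thus lies over other genes. Among these are ERCC1 and HOOK2, whose gene records extend over FOSB and JUNB. The windows of FOS, JUN and BATF3 hold no other protein-coding TSS. In the BATF window the widest region lay at the TSS of the neighbour FLVCR2, a heme transporter family gene, with 2128 bp in H82 and 2294 bp in H146.

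**Figure D4:**
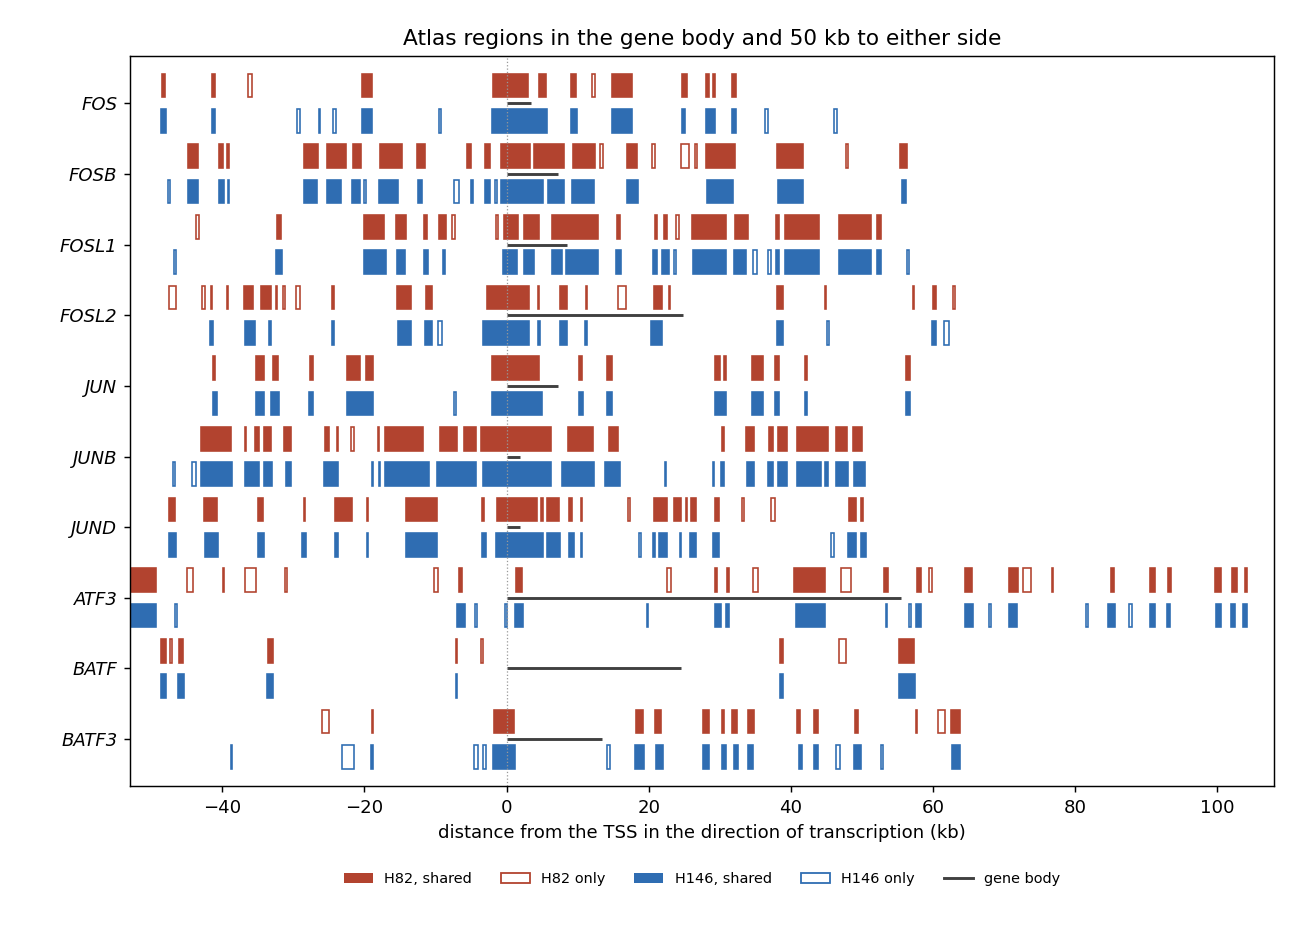
Map of the regions of H82 (red, above) and H146 (blue, below) in the gene body and 50 kb to either side of each member, by distance from the TSS in kb in the direction of transcription, with filled boxes for regions shared between the lines, open boxes for line-only regions and a grey line for the gene body. The 11 line-only regions of H82 at FOSL2 fall on both sides of the gene and inside it, and the 24539 bp gene body of BATF is free of regions.

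**Figure D5:**
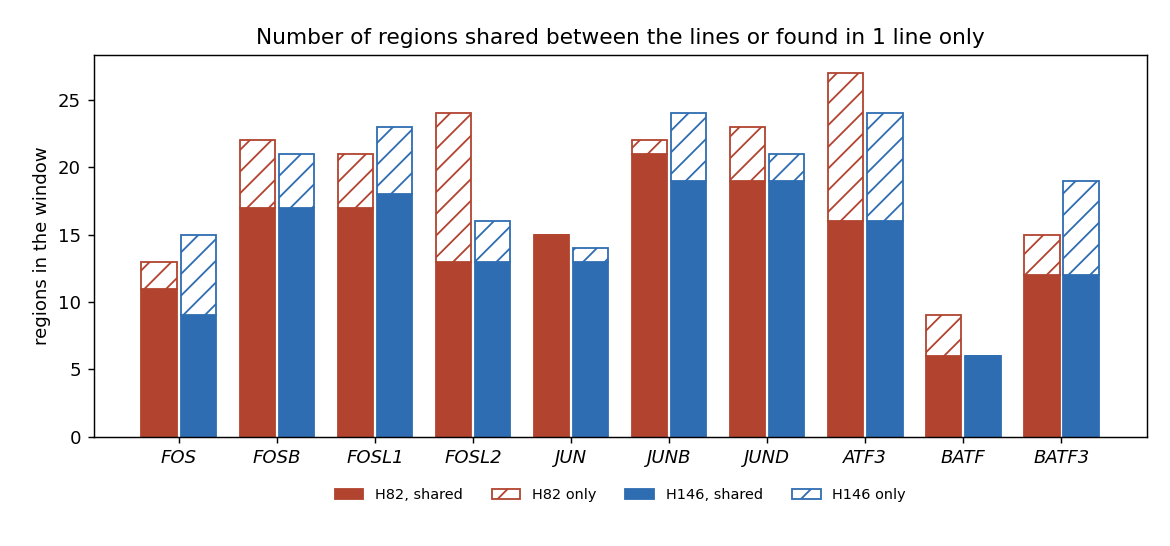
Number of regions in each member's window in H82 (red) and H146 (blue), split into those shared with the other line (filled) and those found in 1 line only (hatched). H82 has more line-only regions at FOSL2 (11 against 3), H146 has more at FOS (6 against 2), and JUN has 0 in H82 and 1 in H146. In the windows of all genes 59.2% of H82 and 71.5% of H146 regions are shared.

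The wider word TGANTCA was then counted in the regions on both strands, without a split by its middle base. In the windows of the members it occurred 0.345 times per kb in H82 (interval 0.273 to 0.429, 80 matches) and 0.343 times per kb in H146 (0.272 to 0.426, 81 matches). Over the whole atlases it occurred 0.320 and 0.347 times per kb, inside both intervals. In the central 200 bp of each region it occurred 0.632 times per kb in H82 (0.401 to 0.948, 23 matches) and 0.575 in H146 (0.351 to 0.888, 20 matches), against 0.387 and 0.443 over the atlases read in the same way, a value below the interval in H82 and inside it in H146. In regions over 1 kb from every protein-coding TSS it occurred 0.456 times per kb in H82 (0.350 to 0.583) and 0.452 in H146 (0.347 to 0.580), against 0.351 and 0.388 over the atlases, both inside the intervals. How the members' windows compare with the atlas in H82 thus depends on the part of the region read. In line-only regions of the windows it occurred 0.468 times per kb in H82 and 0.483 in H146, on 10 and 7 matches, with intervals of 0.225 to 0.861 and 0.194 to 0.994 that contain the whole-atlas values of line-only regions, 0.316 and 0.435. The element TGACGTCA was found 6 times in H82 and 5 times in H146, or 0.0259 and 0.0212 times per kb against 0.00998 and 0.0106 over the atlases. Those rates lay inside the intervals of the windows, 0.00949 to 0.0563 and 0.00687 to 0.0494.

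The members differed in where the word fell. FOSB held 17 matches in each line, while FOS held 1 in H82 and 2 in H146 and BATF held 0 and 1. The TSS region of FOS held none in either line. At JUN the TSS region held 2 in H82 and 3 in H146, and a shared region centred at -21.6 kb in H82 and -20.6 kb in H146 held 3 in both. At FOSL2 there were 6 matches in H82 regions and 1 in H146 regions, and 5 of the 6 lay in regions that H146 lacked. They are shown because they are the largest group of TGANTCA matches at 1 gene that separates the lines. Not all of them read TGACTCA or TGAGTCA. The word is in capitals, with 20 bases to either side on the plus strand.

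FOSL2 at chr2:28345387-28345433, plus strand: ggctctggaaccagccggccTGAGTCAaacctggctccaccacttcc

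FOSL2 at chr2:28361100-28361146, plus strand: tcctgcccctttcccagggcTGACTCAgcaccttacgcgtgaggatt

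FOSL2 at chr2:28363032-28363078, plus strand: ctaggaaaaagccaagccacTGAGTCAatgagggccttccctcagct

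FOSL2 at chr2:28408417-28408463, plus strand: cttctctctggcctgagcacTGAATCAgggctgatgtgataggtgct

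FOSL2 at chr2:28408959-28409005, plus strand: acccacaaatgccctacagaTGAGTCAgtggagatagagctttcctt

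The last 2 of these share a region of 1088 bp inside a FOSL2 intron, and the other 3 lie upstream of the gene. At ATF3, 4 of 15 matches in H82 and 1 of 11 in H146 were in line-only regions. Of the 4, the pair within ATF3 introns is shown first, the second of them in the 1415 bp region at the ATF3 start listed in H82 only. The 2 matches in the widest line-only region of the BATF3 window, an H146 region of 1688 bp centred at -22.3 kb from the TSS, follow.

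ATF3 at chr1:212588057-212588103, plus strand: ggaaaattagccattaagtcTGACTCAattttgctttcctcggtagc

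ATF3 at chr1:212612629-212612675, plus strand: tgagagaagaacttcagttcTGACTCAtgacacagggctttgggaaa

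BATF3 at chr1:212721429-212721475, plus strand: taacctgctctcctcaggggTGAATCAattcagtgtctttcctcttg

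BATF3 at chr1:212721705-212721751, plus strand: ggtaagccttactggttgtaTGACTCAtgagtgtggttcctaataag

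The other genes of the pathway were read from 4 lists. Of 26 other basic leucine zipper partners, 25 had a TSS region in both lines, 1 was 2-fold higher in covered share in H82 and 1 in H146. Over all genes these shares were 75.4%, 15.1% and 1.43%. The first was BACH1, a repressor of heme and oxidative stress genes, covered to 6.74% in H82 and 2.20% in H146 (log2 ratio 1.62). No region lay within 1 kb of the 5′ end of its long gene record, chr21:29194071-29630751, in either line. Its other transcript starts were not read, so its promoter cannot be called closed. The second was MAF, covered to 0.621% and 1.89% (log2 ratio -1.61). Its window held only 2 regions in H82 and 1 in H146, and its TSS region measured 487 and 2173 bp. The call at MAF thus rests on very few regions. All 21 other immediate early genes, such as EGR1 and NR4A1, had a TSS region in both lines and 0 were called. Their median TSS region of 3042 bp in H82 and 2784 bp in H146 was wider than that of all genes and narrower than that of the members.

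Of 22 kinases and serum response factor partners upstream of AP-1, all had a TSS region in both lines and 3 were 2-fold higher in H82. Over all genes 15.1% were higher in H82 by that much, a share that 3 of 22 does not exceed. Among the 3 were MAP2K2, which encodes a kinase of the growth factor cascade (27.1% in H82 and 8.23% in H146), and MRTFA, a coactivator of serum response factor (7.84% and 3.88%). The 1 Mb to either side of the MAP2K2 window was covered to nearly the same shares, 25.5% in H82 and 7.77% in H146. The difference at MAP2K2 is thus not particular to its window. Around MRTFA the surroundings were covered to 7.57% and 5.82%. Of 20 classical AP-1 targets 14 had a TSS region in both lines and 4 in neither, among them the collagenase gene MMP1 and the urokinase gene PLAU. Only the 5′ ends of their gene records were read, so their promoters cannot be called closed either. Over all genes 75.4% had a TSS region in both lines and 17.7% in neither. The chemokine gene CXCL8 had one in H146 only, 532 bp wide, with a covered share of 2.34% in H82 and 4.79% in H146, the only target called. The chemokine gene CCL2 had one in H82 only, 257 bp wide. The median log2 ratios of the 4 lists were 0.18, 0.14, 0.34 and 0.13 in the order given, beside 0.05 for the members and 0.19 for all genes.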

How the data were processed

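ATAC-seq libraries of H82 and H146 cells, untreated or given FHD-286, were processed by the authors. Reads were trimmed (Trim Galore 0.4.4), aligned to hg38 (Bowtie2 2.3.4) and stripped of duplicates (Picard), regions were called per sample with MACS2, and blacklisted regions were removed. Regions of all samples of a line within 500 bp were merged. The deposited values are the start (0-based) and the end of every region in bp, with no score or count, so widths reflect merging, and an atlas grows with its libraries. The smallest gap was 501 bp in both. Whether transposase cuts were shifted is not given in the sources used here.

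Here, genes and TSSs (the 5′ end of the gene record) came from GENCODE release 44 on hg38, over 24 chromosomes. Coordinates are 1-based. A TSS region overlapped the TSS or the 1 kb before or after it, with percentiles taken over all genes that have one. The covered share counted bases in regions within the gene body and 50 kb to either side, and was called at 2-fold. Intervals are exact (95%) and cover counting error only. Words were matched exactly on both strands. Python 3.11.15, NumPy 2.4.6, SciPy 1.17.1 and matplotlib 3.10.9 were used, and the scripts were tested on simulated data. All members were named. From the pathway lists, genes were named with a TSS region in 1 line only or a 2-fold difference, at most 4 per list and direction, and some of these genes and markers are not reported here; EGR1, NR4A1, MMP1 and PLAU were added after their values were seen. The members and lists were chosen with earlier results of these data known.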

Additional observations from a re-analysis of the deposited data

How the results depend on the processing

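No paired analysis was possible because the atlases hold no value per library. The number of members with a TSS region in both lines, 8, became 9 with a TSS window of 5 kb or the starts of all transcripts. The number of members with the larger covered share in H82, 6, became 3 with 10 kb to either side and 1 after division by the whole atlas, and ranged from 4 to 5 under the other settings. The median log2 ratio over the members, 0.05, became -0.09 with 10 kb to either side and -0.04 with 100 kb. It became -0.22 after division by the whole atlas and -0.13 after division by the 1 Mb to either side. With regions of at least 500 bp it was 0.00, and it stayed at 0.05 only with regions over 1 kb from every TSS. When overlap of at least 50% of both regions was required, 61.0% of H82 and 63.8% of H146 regions in the windows were shared, in place of 76.9% and 77.6%. The shares in the windows of all genes, 59.2% and 71.5%, rest on an overlap of 1 bp. They cannot be set beside the values at 50%. TGANTCA occurred 0.632 times per kb in H82 and 0.575 in H146 in the central 200 bp of regions, and 0.456 and 0.452 times in regions over 1 kb from every TSS, in place of 0.345 and 0.343. The ratio of region numbers stayed inside its interval under the other settings. The unknown depth limits every statement that a region is absent from a line.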
